A study of Mus musculus with 2 samples.

Results

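The chitinase-like genes measured here are Chi3l3 (now Chil3, also called Ym1) and Chi3l4 (now Chil4, also called Ym2), with Chi3l1 (now Chil1) as the only other gene whose deposited symbol starts with Chi3l. They made up 3 of the 7976 genes and 5 of the 9143 probes in the deposited table. Chil3 and Chil4 were chosen by their measured ratios of IRF8 KO over wt, so these ratios and the raw signals behind them are given as a description. No test of these genes is read from them, and where limma calls include them, only the count is given. RNA came from untreated primary mouse CD11b-positive cells (CD11b, the integrin chain that Itgam encodes, sits on the surface of myeloid cells) that lacked interferon regulatory factor 8 (IRF8 KO), and from the same kind of cells of wild type (wt). Each of 2 two-colour arrays, stated to be biological replicates, carried IRF8 KO RNA in Cy3 and wt RNA in Cy5, and the dyes were never exchanged. With fixed dyes, what a probe owes to its dye cannot be told apart from what it owes to IRF8. The labels give no tissue, strain, age, sex or way of selecting the cells, and nothing on how IRF8 was removed or on pooling of animals. They also name no animals, so the spread between the arrays, and every p-value with it, may be partly technical.

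Chil3 and Chil4 are secreted proteins that are built like the chitin-cleaving enzymes of glycoside hydrolase family 18 but do not cleave chitin. Mouse neutrophils, monocytes and alternatively activated macrophages make Chil3, in macrophages after interleukin stimulation through the transcription factor STAT6, and Chil4 is best known from inflamed airways. IRF8 favours monocytes and dendritic cells over granulocytes during blood cell formation, and the series asks which genes it regulates in CD11b-positive cells.

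Each ratio given here is the log2 of the IRF8 KO over the wt signal, turned from the deposited ratio, with n = 2 arrays and no further centring unless stated. The table listed 6119 probes on replicate 1 and 8702 on replicate 2, and 5678 on both. Over the 5192 genes measured on both arrays the median ratio was 0.03 on replicate 1 and -0.42 on replicate 2, so a ratio near -0.42 on replicate 2 was that of a middling gene. The median of both arrays' mean was -0.21, and it moved to -0.05 with each array centred on its median and to -0.01 with loess, which removes a trend of the ratio with brightness. The targeted gene Irf8 was not analysed here, so the genotype labels have no check from it. The transcript of the marker itself, Itgam (CD11b), had raw signals of 7883 in IRF8 KO and 1862 in wt cells on replicate 1, and of 15036 and 3527 on replicate 2. It lay 4.16-fold and 3.25-fold higher in IRF8 KO cells on the 2 arrays. Transcripts of other cell types were present in both genotypes: Cd79a, a chain of the B cell receptor, read 44842 (IRF8 KO) and 47390 (wt) on replicate 1 and 57822 and 63068 on replicate 2. The samples were bulk RNA, in which fewer cells of a type and less RNA per cell cannot be told apart.

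Chil3 and Chil4 lie close together on chromosome 3, and their annotated upstream regions resemble each other. In build 37, as deposited, Chil3 spans chr3:105950471-105970482 and Chil4 spans chr3:106004408-106022397. The 250 bases before each gene's annotated start, from RefSeq on build GRCm38.p6, are shown because the pair stood highest of the 3 family genes listed on replicate 1. Both lie on the minus strand, at chr3:106167565-106167814 for Chil3 and chr3:106219480-106219729 for Chil4. Capitals mark matches to the letters TTNNGNAA or their reverse complement, a short form of the site bound by C/EBP factors of granulocytes and macrophages.
Chil3: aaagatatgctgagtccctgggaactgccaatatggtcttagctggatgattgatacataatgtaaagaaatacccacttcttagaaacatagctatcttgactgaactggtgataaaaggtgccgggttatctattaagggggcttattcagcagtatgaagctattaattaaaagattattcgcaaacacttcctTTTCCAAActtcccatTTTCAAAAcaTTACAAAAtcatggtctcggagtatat
Chil4: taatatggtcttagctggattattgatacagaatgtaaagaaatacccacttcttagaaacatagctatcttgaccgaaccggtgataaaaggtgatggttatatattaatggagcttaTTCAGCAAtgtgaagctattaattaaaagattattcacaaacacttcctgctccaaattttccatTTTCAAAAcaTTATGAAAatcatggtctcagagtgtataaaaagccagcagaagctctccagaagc
Of 221 aligned bases, 201 were identical in the 2 windows (91.0%), with 20 mismatches and 2 gapped positions. The C/EBP letters matched at 3 places in each window, but 36.8% of 32851 mouse promoters of the same length held at least 1 match. The matches end 20 bases before the start in Chil3 and 49 bases before it in Chil4, and 1 matched word, tttcaaaa, occurred in both windows. In the alignment the windows were offset by 28 bases, so these distances are counted from annotated starts that do not align. The same window of Chil1, on chromosome 1, shared 124 of 219 aligned bases with that of Chil3 and 129 of 215 with that of Chil4, and held 1 match. The other letters searched had no match on either strand of either window. They were those of STAT6 (TTC and GAA with 4 free bases between, in 5.85% of promoters), PU.1 (GAGGAA, in 23.3%), the ETS-IRF composite element (GGAA and GAAA with 2 free bases between, in 2.3%) and the interferon-stimulated response element (GAAA and GAAA with 2 free bases between, in 2.98%). The composite and the response element share the letters GAAA. Other spacings of TTC and GAA were not searched, and ttcttagaa, with 3 bases between, stands in both windows. A match to such letters is a description of the sequence and not a bound site.

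Chil3 differed widely between the arrays. It was read by 2 probes, and on replicate 1 the probe mMR028392 (chr3:105950748-105951524, build 37) gave 62451 in IRF8 KO cells and 6092 in wt cells. On replicate 2 the same probe gave 60047 in IRF8 KO cells and 51945 in wt cells. The second probe, mMC020473 (chr3:105950633-105950703), gave 51390 in IRF8 KO and 5573 in wt cells on replicate 1, and 60426 and 54516 on replicate 2. Both probes lie inside the gene's deposited span, near the end opposite its annotated start. Thus both probes were bright in IRF8 KO cells on both arrays, while wt cells were about as bright as IRF8 KO cells on replicate 2 and far below them on replicate 1. The ratios were 3.33 and 3.18 on replicate 1 and -0.18 and -0.24 on replicate 2, so the 2 probes of Chil3 differed from each other far less than the arrays did. As the mean of its probes, Chil3 stood at 3.26 on replicate 1 and at -0.21 on replicate 2. By probe, the normalised ratio on replicate 1 was 9.06-fold for mMC020473, below the ceiling, and at least 10.1-fold for mMR028392. Signals of 60000 or more, here called near the ceiling of the scanner, were read in IRF8 KO cells by mMR028392 on both arrays and by mMC020473 on replicate 2, so a higher level in IRF8 KO cells could have been hidden there. On replicate 2 the value turned to 0.09 once each array was centred and to 0.29 with loess, so its sign rests on the scaling. The mean of both arrays was 1.52 ± 2.45 (SD, n = 2), which rested on replicate 1.

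**Figure D1:**
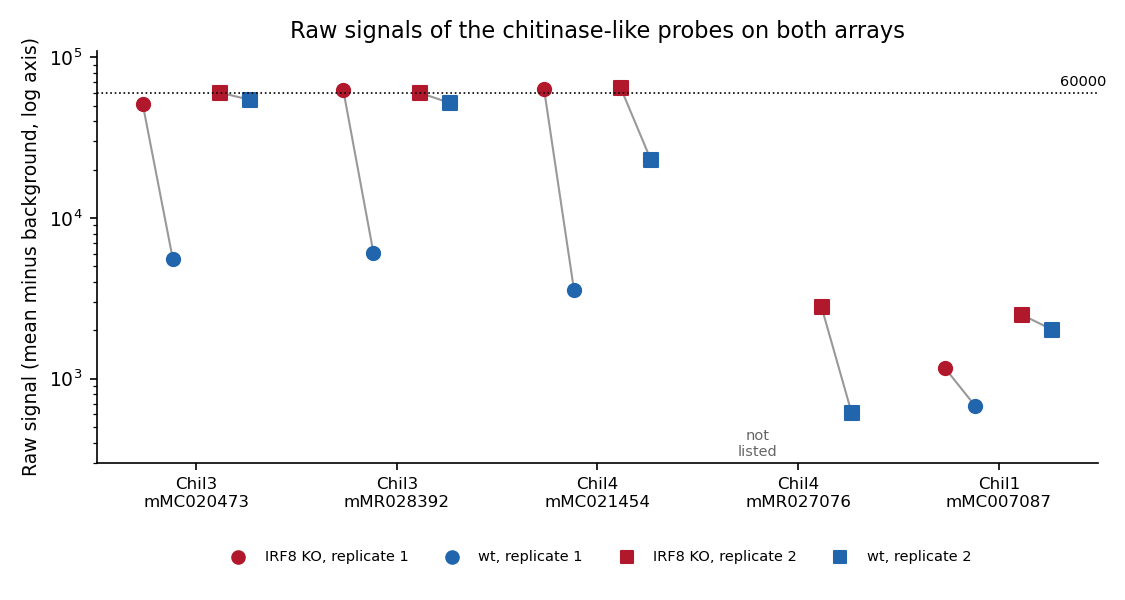
Raw signals (mean spot intensity minus median background, log axis) of the 5 chitinase-like probes; red is IRF8 KO, blue is wt, circles are replicate 1, squares are replicate 2, grey lines join the channels of an array, and the dotted line marks 60000. The 3 bright probes of Chil3 and Chil4 sit between 51390 and 64188 in IRF8 KO cells on both arrays, while wt cells run from 3542 to 54516.

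Chil4 was higher in IRF8 KO cells on both arrays. Its probe mMC021454 (chr3:106008941-106009011, build 37) gave 63877 in IRF8 KO cells and 3542 in wt cells on replicate 1. On replicate 2 it gave 64188 in IRF8 KO cells and 22934 in wt cells. IRF8 KO cells were close to the highest signal in the table, 65072, on both arrays, and wt cells were well below them on both. Because a signal near the ceiling can hide a higher level, the ratios are bounds: Chil4 was at least 17.7-fold higher in IRF8 KO cells on replicate 1 (log2 4.15) and at least 2.13-fold on replicate 2 (log2 1.09). The mean was 2.62 ± 2.16 (SD, n = 2). A second Chil4 probe, mMR027076, had no probe position in the table and was listed on replicate 2 alone, with 2792 in IRF8 KO and 613 in wt cells. Its ratio of 1.80 (3.47-fold) was away from the ceiling and had the same direction as that of the bright probe. Both bright probes of Chil3 and the bright probe of Chil4 matched 1 gene ID each in the deposited annotation. Probe sequences and exon annotation were not used here, so which exons the probes cover, and binding of the transcript of one gene by a probe of the other, was not tested.

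Chil1, which encodes the mouse counterpart of human YKL-40 and lies on chromosome 1 (chr1:136078980-136086608, build 37), showed a small difference. It gave 1157 in IRF8 KO cells and 674 in wt cells on replicate 1, and 2494 and 2016 on replicate 2. The ratios were 0.75 on replicate 1 and -0.09 on replicate 2, and the value on replicate 2 turned to 0.22 after centring and 0.28 with loess. Its mean of 0.33 ± 0.59 (SD, n = 2) was smaller than its spread between arrays.

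Among all 5192 genes, Chil4 ranked 2nd and Chil3 8th from the top by the ratio on replicate 1, and 113th and 1734th by that on replicate 2. Of the 3 genes, 2 passed limma higher in IRF8 KO cells, against 2.81% of all genes, and 1 was at least 2-fold higher on both arrays, Chil4, against 2.16%. Since these ratios chose the genes, nothing is read from the counts. Of all genes, 3 were counted as passing although the arrays had opposite signs, 1 of them a member. With the arrays centred 1 of the 3 members was counted, and with an ordinary t statistic 0. All 3 bright probes were 2-fold higher on replicate 1, where 7.68% of listed probes were, and Chil3 belonged to the 1.93% of genes that were 2-fold higher on replicate 1 and below 0 on replicate 2. The gap between the arrays was 3.47 log2 units for Chil3 and 3.05 for Chil4, the 7th and 15th largest in size of all genes, where the median size was 0.54. Both gaps and their ranks hold for the signals as read, since IRF8 KO signals near the ceiling leave the true ratios, and so the true gaps, unread.

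**Figure D2:**
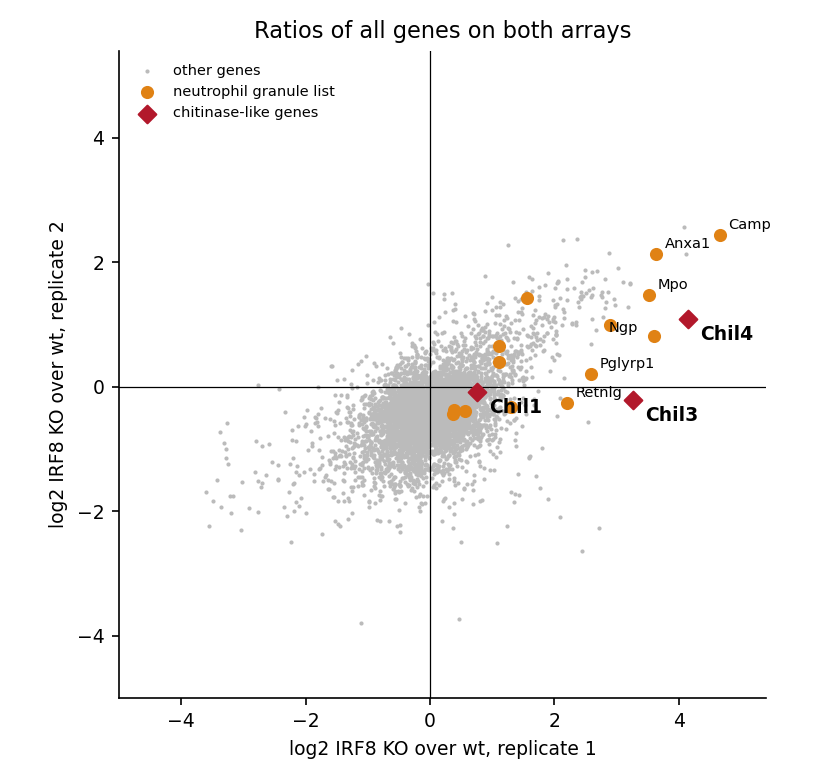
log2 ratio of IRF8 KO over wt on replicate 1 (horizontal) and replicate 2 (vertical) for the 5192 genes on both arrays; each point is a gene, orange marks neutrophil granule genes and red diamonds the chitinase-like genes. Chil4 lies at 4.15 and 1.09, Chil3 at 3.26 and -0.21, and Chil1 at 0.75 and -0.09.

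The gap between the arrays was seen in the wt channel. Between the arrays, the median probe was 1.9-fold brighter on replicate 2 in IRF8 KO cells and 2.0-fold brighter in wt cells. In IRF8 KO cells the Chil3 probes were 1.18-fold (mMC020473) and 0.962-fold (mMR028392) as bright on replicate 2 as on replicate 1, and the Chil4 probe 1.0-fold. In wt cells they were 9.78-fold and 8.53-fold as bright, and the Chil4 probe 6.47-fold. Less the median of all probes, these 3 probes stood at -0.69, -0.99 and -0.92 log2 units in IRF8 KO cells, against 2.29, 2.09 and 1.69 in wt cells, where they exceeded 99.6%, 99.3% and 97.9% of the 5678 probes. A probe held at the ceiling on both arrays takes a value like those of mMR028392 and the Chil4 probe in IRF8 KO cells by construction: the 32 probes at 60000 or more in IRF8 KO cells on both arrays ran from -1.03 to -0.83. The Chil3 probe mMC020473, at -0.69, lay outside that range. It read 51390 on replicate 1 and was near the ceiling on replicate 2 alone. Whether IRF8 KO cells also differed in Chil3 or Chil4 between the arrays could therefore not be seen. Chil1, far from the ceiling, differed by 0.18 in IRF8 KO and 0.58 in wt cells.

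**Figure D3:**
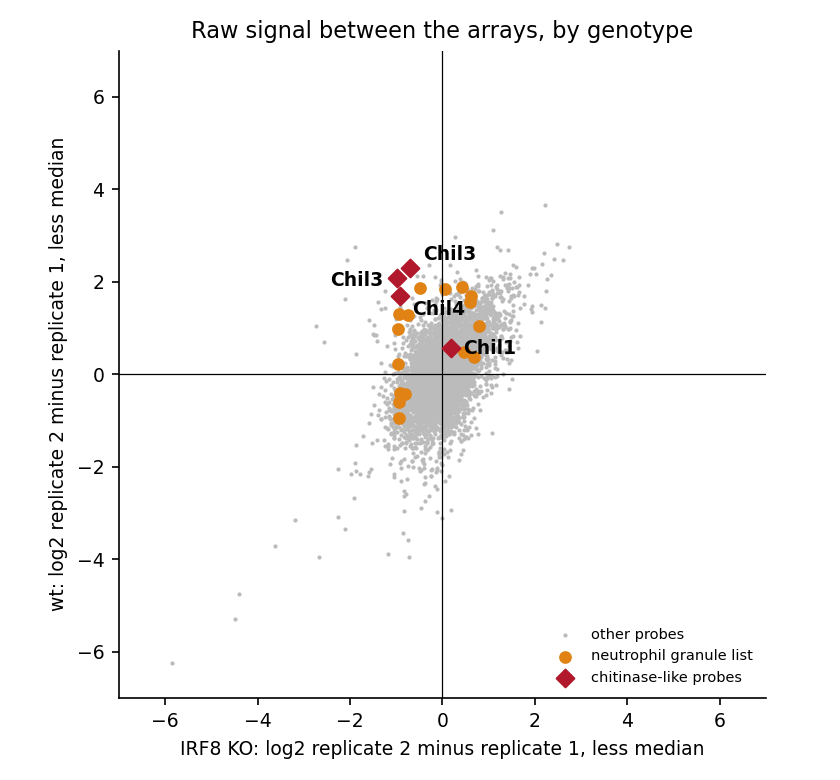
Difference in log2 raw signal, replicate 2 minus replicate 1 less the median of all probes, in IRF8 KO cells (horizontal) and in wt cells (vertical) for the 5678 probes on both arrays. The 3 bright Chil3 and Chil4 probes lie between -0.99 and -0.69 in IRF8 KO cells and between 1.69 and 2.29 in wt cells; orange marks probes of neutrophil granule genes.

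On replicate 2 both channels of the Chil3 probes were bright. There 114 probes had at least 50000 in both channels, and their ratios ran from -0.74 to -0.18 with a median of -0.46. Such a cut on both channels, below the ceiling, by itself holds the ratio to a narrow range. The ratios of the Chil3 probes, -0.18 (mMR028392) and -0.24 (mMC020473), therefore could not have been far from those of the other bright probes, and no level in either genotype is read from them.

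Other genes of the chitinase cluster on chromosome 3 were measured on replicate 2 alone. Chia1, the acidic mammalian chitinase, an enzyme that does cleave chitin, lies with its middle at -34.8 kb from that of Chil3 (probe at chr3:105931409-105931479, build 37) and gave 2974 in IRF8 KO and 763 in wt cells, a 2.97-fold difference (log2 1.57). Chil5, another chitinase-like gene listed under the symbol Bclp2, lies at -132.7 kb (probe at chr3:105819960-105820030) and gave 2735 in IRF8 KO and 968 in wt cells, a 2.15-fold difference (log2 1.11). Ovgp1, a glycoprotein of the oviduct, gave 1106 in IRF8 KO and 1219 in wt cells (log2 -0.53). Ctbs, which encodes a lysosomal enzyme that trims sugar chains and lies farther along the chromosome, gave 3069 in IRF8 KO and 1595 in wt cells (log2 0.55). Of the 5 family probes listed on replicate 2 alone, the second Chil4 probe included, 3 were at least 2-fold higher in IRF8 KO cells, against 6.02% of all 3024 probes listed on that array alone. Of the 5 probes of Chil1, Chil3 and Chil4, 2 were 2-fold higher on replicate 2, both of Chil4, against 3.85% of all probes listed on it. Both counts include Chil4, which was chosen by its ratios, so nothing is read from them. The values listed on replicate 2 alone have no replicate check. Binding of the bright Chil3 and Chil4 transcripts by the probes of other family genes was not tested. Chit1, Chil6 and Chid1 of the 10 family genes were not analysed here.

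Genes of other families around the cluster stayed within 2-fold. Within 500 kb of Chil3, 6 probes of 5 other genes ran from -0.54 to -0.15 on replicate 2, and 5 probes of 4 genes from -0.77 to 0.59 on replicate 1. The closest were Wdr77 (-0.15 on replicate 2) on one side and Dennd2d (0.59 and -0.36 on replicates 1 and 2) on the other. None of the 11 values was at least 2-fold higher in IRF8 KO cells, where 7.68% of all probes on replicate 1 and 3.85% on replicate 2 were. With so few values, having none is close to these shares, so nothing is read from it. Chil3 and Chil4 were chosen by their ratios, so nothing is read from their standing apart from these neighbours.

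**Figure D4:**
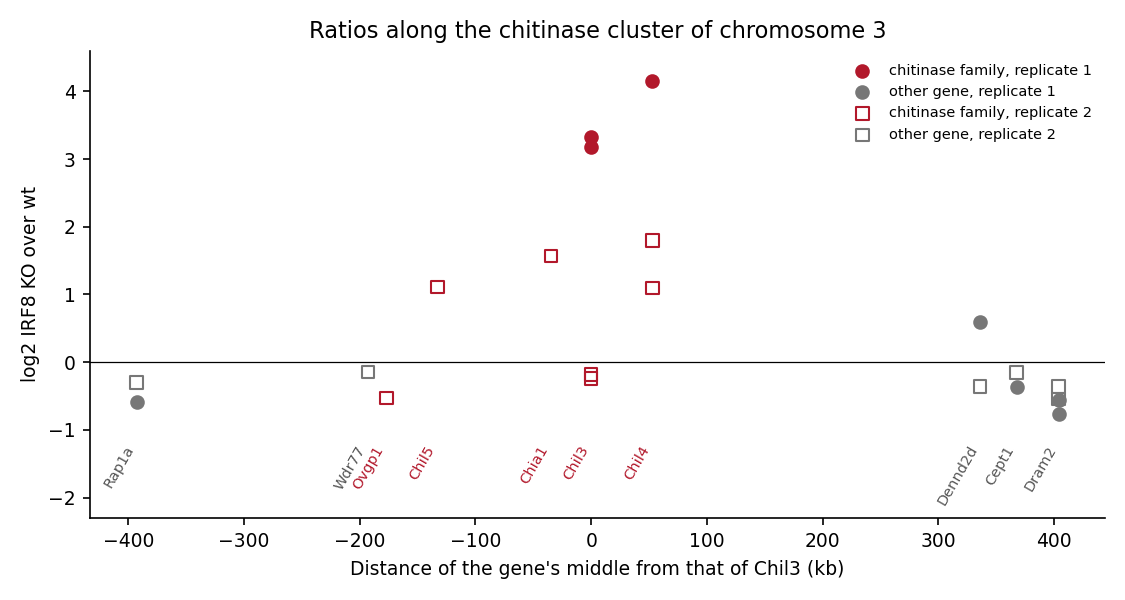
log2 ratio of IRF8 KO over wt against the distance of each gene's middle from that of Chil3 (kb, deposited positions of build 37); red is the chitinase family, grey other genes, filled circles replicate 1, open squares replicate 2. Family genes reach 4.15 on replicate 1 and 1.80 on replicate 2, while other genes stay between -0.77 and 0.59.

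The genes whose ratios lay closest to those of Chil3 and Chil4 included several of neutrophil granules. Closeness was the distance in the plane of the 2 ratios, so it rests on 2 arrays. Closest to Chil3 came Pglyrp1, a peptidoglycan-binding protein of granules, at 2.59 on replicate 1 and 0.21 on replicate 2 (distance 0.79). Next were the small GTPase Rhob (2.54 and -0.57), the interferon-induced membrane protein Ifitm6 (2.54 and 0.23) and Retnlg, a resistin-like protein of neutrophils (2.20 and -0.26). Ngp, the neutrophilic granule protein (3.60 and 0.81), Hmgb2, a chromatin protein (2.58 and 0.69), complement C3 (2.15 and 0.13) and the unnamed transcript D530037H12Rik (2.09 and -0.18) completed the 8. Pglyrp1, Ifitm6, Retnlg, Hmgb2 and C3 also had a channel near the ceiling.

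Closest to Chil4 came Ngp (distance 0.61) and Mpo, the peroxidase of primary granules (3.52 on replicate 1 and 1.47 on replicate 2, distance 0.73). The phospholipid scramblase Plscr1 (3.18 and 1.28), Ceacam10 (4.11 and 2.13), Megf9 (3.22 and 1.65) and the oxidase of the endoplasmic reticulum Ero1a (3.22 and 1.66) followed. Anxa1, a phospholipid-binding protein that neutrophils store (3.64 and 2.13), and the spindle gene Spag5 (3.10 and 1.68) completed the 8. Each of the 2 sets held 3 genes of the neutrophil granule list, of which 14 were among the 5192 genes (0.27%). The list and the members were both picked with these ratios known, so this count supports nothing. The 8 genes closest to Chil1, such as the arrestin Arrb1 (0.73 and -0.08), held 0 of that list.

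Several genes of neutrophil granules rose in IRF8 KO cells. Of 14 measured on both arrays, 7 passed limma with Benjamini-Hochberg adjustment higher in IRF8 KO cells and 0 lower, against 2.81% and 3.41% of all genes. At least 2-fold higher on both arrays were 4 of the 14, against 2.16% of all genes. This list, like the other lists below, was written with earlier results of these data known, so its counts are a description. Camp, an antimicrobial peptide, rose most (4.66 and 2.43 on replicates 1 and 2, adjusted p = 3.89e-15), followed by Anxa1 (adjusted p = 5.76e-10) and Mpo (adjusted p = 1.76e-07). Ngp (2.21 ± 1.98, SD, adjusted p = 4.98e-06), the protease inhibitor Serpinb1a (1.94 ± 1.35), the oxidase subunit Cybb (1.49 ± 0.09) and Pglyrp1 (1.40 ± 1.68) rose as well. Camp, Mpo and Pglyrp1 had a probe near the ceiling, so their ratios may be understated. The median of the 14 was 1.18, against -0.21 over all genes, from 1.88 on replicate 1 and 0.53 on replicate 2. With the arrays centred 6 passed, with loess 10, and without probes near the ceiling 6 of 7. The tests share 1 spread estimate over all genes, and an ordinary t statistic passed 0 of these genes.

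Several of the granule genes shared the wt channel's gap between the arrays with Chil3 and Chil4. Replicate 2 minus replicate 1, less the median of all probes, their median was -0.36 log2 units in IRF8 KO cells and 1.02 in wt cells. In wt cells 10 of the 14 lay above 0, where 2558 of all 5192 genes did. The list was uneven. Above 0 in wt cells were, among others, Serpinb1a (1.89), Ngp (1.87), Camp (1.85), Anxa1 (1.69) and Retnlg (1.27). Below it were Ltf (-0.61), S100a8 (-0.43), Lcn2 (-0.41) and Lyz2 (-0.24). Each gene below 0 had a probe near the ceiling, as did Camp and Retnlg. Probes near the ceiling in wt cells on both arrays ran from -1.07 to -0.91 by construction. In wt cells the Lyz2 probe mMR027598 read 60491 on replicate 1 and 62871 on replicate 2, while mMR028073 read 2126 and 5910. How much of the unevenness the ceiling made was not tested. B cell genes had a median of -0.003 in IRF8 KO and 0.99 in wt cells, and macrophage genes of -0.46 in IRF8 KO and -2.48 in wt cells, so between the wt samples B cell genes differed in the direction of Chil3 and macrophage genes in the opposite direction. The part of these cell types in the Chil3 result was not tested.

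Alternative activation is the macrophage state for which Chil3 is a common marker. Of 32 genes in its list 10 were measured on both arrays, and 0 passed limma in either direction; at an unadjusted p under 0.05 there were 0 higher and 2 lower, against 294 higher and 545 lower of all 5192 genes. The count was 0 as well with the arrays centred and with loess. An ordinary t statistic passed 0 of all genes, so its count of 0 here shows nothing about the list. The median was -0.47 against -0.21 over all genes. The largest in size were the transcription factor Klf4 (-0.98 ± 1.66, SD), the shared cytokine receptor chain Il2rg (-0.96 ± 0.95) and the lipid-sensing receptor Pparg (-0.77 ± 0.36). Stat6, through which the cytokines act, stood at 0.16 ± 0.38 and Il4ra, a subunit of their receptor, at -0.59 ± 1.27. The 10 included parts of the signalling path, among them Il2rg, Il4ra and Stat6, whose levels need not follow the state. Listed on replicate 2 alone were Cd209a (1.21) and Ccl22 (-0.07), and on replicate 1 alone Irf4 (0.66) and Cdh1 (-0.33). The widely used markers Arg1, Retnla and Mrc1 were not analysed here, so the state itself was not tested.

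Of 7 regulators of myeloid cells measured on both arrays, Irf5 fell (-2.18 ± 0.15, SD, limma adjusted p = 6.33e-06) and 0 rose, with a median of -0.005. With loess 1 of the 7 passed higher and 1 lower, and an ordinary t statistic passed 0 of them. The granulocyte regulator Gfi1 stood at 1.10 ± 0.65 (adjusted p = 0.0773) and Spi1, which encodes PU.1, at -0.84 ± 0.34 (adjusted p = 0.253). The C/EBP genes Cebpd (1.44) and Cebpb (-0.38) were listed on replicate 2 alone.

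Markers of other cell types that can make or accompany Chil3 moved in both directions. Among 10 classical monocyte genes 2 rose and 3 fell, with Ly6c1 at 2.00 ± 0.70 (SD) and Ms4a6c at -2.89 ± 0.93, and a median of -0.27. Without probes that match several genes 0 rose. Of 7 macrophage genes 6 fell and 0 rose (median -2.25), and with the arrays centred 5 fell. Marco, 1 of the 6, was lower on replicate 1 alone (-2.76, against 0.03 on replicate 2). Of 5 dendritic cell genes 4 fell and 0 rose (median -1.48), but with the arrays centred 0 fell. Eosinophil, basophil and mast cell genes had 3 members on both arrays and 0 passed, with the ribonuclease genes Ear1 and Ear2 at 0.72 ± 0.49 and 0.71 ± 0.68, near-identical copies whose probes may share transcripts. With loess 2 of these 3 genes passed, higher in IRF8 KO cells. Of 7 B cell genes 0 passed (median -0.86), of 3 erythroid genes 0 (median -0.85) and of T and NK cell genes 0 of 1. With loess 1 B cell gene and 1 erythroid gene passed, both lower in IRF8 KO cells. At an unadjusted p under 0.05 in limma, 4 of 7 B cell genes and 2 of 3 erythroid genes were lower, where 545 of all 5192 genes were, and 0 genes of the eosinophil or T and NK cell lists were lower or higher.

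**Figure D5:**
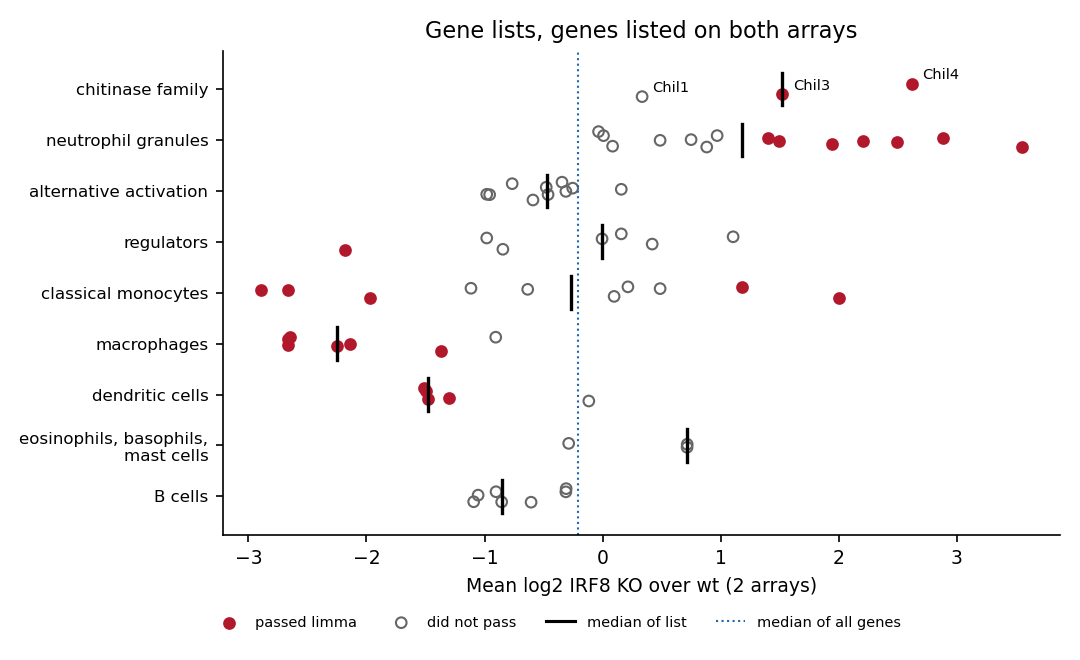
Mean log2 ratio of IRF8 KO over wt of each gene listed on both arrays, by gene list; filled red points passed limma, open points did not, black bars are list medians and the dotted blue line is the median of all genes at -0.21. Chil4 stands at 2.62 and Chil3 at 1.52. These ratios chose both genes, so nothing is read from their fill or their place. Neutrophil granule genes lie between -0.03 and 3.55, and the 10 genes of alternative activation lie between -0.98 and 0.16.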

How the data were processed

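Two-colour arrays compared IRF8 KO (Cy3) with wt (Cy5) RNA. Per the file headers, the deposited log2 values are ratios of Cy5 over Cy3 normalized to the 50th percentile (median). Per the file headers, the deposited intensity values are the mean of a spot minus its median background. Also per the file headers, both channels of a spot needed a signal of at least 100 and a signal-to-background ratio of at least 1, which can remove a transcript that either genotype hardly expresses, and of repeated spots the brightest was kept. Each deposited ratio equalled the raw log2 ratio plus a constant (0.026 and 0.392). The value table holds the same ratios with the arrays the other way round; array names were followed, so only the replicate numbers rest on this choice.

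Every ratio was given as IRF8 KO over wt. Probes on both arrays were averaged per gene and tested with limma 3.58.1 (R 4.3.3) against 0, two-sided, with Benjamini-Hochberg adjustment over 5192 genes and a threshold of 0.05. The prior degrees of freedom were infinite, so every gene had a standard error of 0.40 and passing meant a mean of at least 1.18 in size. The fit was tested on simulated data. Symbols were updated by gene ID for 8370 of 8459 probes from RefSeq. Near the ceiling means 60000 or more. Named genes were the family, the 8 closest to each member, and of the granule, activation and regulator lists those that passed, or the 3 largest in size where 0 did; the other genes named were chosen after their values were seen. Members and lists were chosen with earlier results of these data known. Precision is limited by the 2 arrays.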

Additional observations from a re-analysis of the deposited data

How the results depend on the processing

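The ratio of Chil3 ranged from 1.52 to 1.75 and that of Chil4 from 2.62 to 2.84 over centring, loess, the filters on dim spots, the brightest probe and the exclusion of probes matching several genes. With 1 array left out, Chil3 ran from -0.213 to 3.255, reversed without replicate 1, and Chil4 from 1.093 to 4.147. These ratios chose both genes, so no test of them is read. Without probes near the ceiling neither gene had a value. Of all genes 323 passed limma (146 higher, 177 lower in IRF8 KO), 239 with centred arrays (160 and 79, so 66.9% of them higher), 658 with loess, 196 with signals of at least 1000, a filter chosen after seeing the data, and 0 with an ordinary t statistic, which gave 302 an unadjusted p under 0.05. Genes 2-fold alike on both arrays numbered 255. A single array left from 677 to 778 genes past 2-fold, and no test is possible there. Of the 8 genes closest to Chil4, 5 remained when each array was divided by its SD; of those closest to Chil3, 7 remained. Every ratio already pairs both genotypes within an array, so no further block was fitted.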
